A study of Rattus norvegicus with 4 samples.

Results

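The genes described here encode the machinery that attaches ubiquitin to proteins, removes it again and controls the cullin ubiquitin ligases. They were taken by symbol, as the ubiquitin-conjugating (E2) enzymes named Ube2, the ubiquitin-specific proteases named Usp and a digit (without Usp18), the Uchl and Otub or Otud proteases, the cullins and the COP9 signalosome subunits named Cops. This gave 99 of the 14217 genes that carry a single symbol on the array, each read at its brightest probe set over the 4 arrays. The data came from whole ovaries of female rats (Rattus norvegicus), removed on postnatal day 4 and kept on floating filters for 10 days, either with 50 ng/mL anti-Müllerian hormone (AMH) or untreated (control). About 10 ovaries were pooled per RNA sample and 2 independent pools were made per group, so that 2 AMH arrays were compared with 2 control arrays. All cultures shared a medium with albumin, transferrin, insulin and ascorbic acid, and no strain is named by the labels. The ovaries were isolated organs, cut off from the circulation and the pituitary, and every sample mixes all ovarian cell types. Per the series title, the study asked how AMH alters the ovarian transcriptome while it inhibits the primordial to primary follicle transition.

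Ubiquitin is a small protein that is activated by an E1 enzyme, handed to an E2 enzyme and passed to a substrate by an E3 ligase, which chooses the substrate. Chains of ubiquitin can mark a protein for the proteasome or change its partners, and deubiquitinating proteases take them off. Cullins are the scaffolds of the largest family of E3 ligases: they work when the ubiquitin-like protein NEDD8 is attached to them, and the COP9 signalosome switches them off by removing it. In the ovary the best known member is Uchl1, a protease very abundant in oocytes and neurons. The AMH receptor signals through SMAD proteins, whose stability and that of their receptors is also set by ubiquitin ligases and proteases.

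Values are probe set intensities as deposited, and each difference is AMH minus control after log2(intensity + 16), given ± its standard error in a limma fit (n = 2 arrays per group). A member is called higher or lower when its p, adjusted by Benjamini-Hochberg over all 18625 tested probe sets, is under 0.05. Of the 99 members 93 were bright enough to be tested. The other 6 (Cul9, Otud3, Otud7a, Ube2d2b, Ube2u and Usp49) reached at most 43.3 on any array and lay below the filter, which uses the mean over all 4 arrays. As ovary markers, Zp3 of the oocyte coat had 2721.8 and 1977.8 on the AMH arrays against 2531.1 and 2133.5 on the control arrays, and the AMH receptor gene Amhr2 had 634.2 and 812.6 against 521.3 and 366.1. Zp3 does not stand for all oocyte markers, since 7 of the 10 tested were called lower with AMH, as given below.

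The groups also differed in RNA quality measures. For Gapdh control probe sets the signal at the 3′ end over that at the 5′ end, a ratio that rises as RNA is degraded or copied incompletely, was 6.56 and 6.37 on the AMH arrays against 1.17 and 1.27 on the control arrays, and the chip identifiers of the groups carried different run strings, so that run and treatment cannot be told apart in any value below. The same ratio for beta-actin was 10.7 and 14.4 on the AMH arrays against 3.17 and 4.60 on the control arrays. For hexokinase it was 7.04 and 10.8 against 3.12 and 5.57. The part of RNA quality and run in the differences was not tested.

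Both directions were about equally common among these genes. Of the 93 tested members 12 rose (12.9%) and 13 fell (14%), against 11% higher and 11.9% lower among all 10622 tested genes, so the shares lay near the background. The falls were larger than the rises: 9 of the 13 were at least 2-fold, while the 12 rises ran from 1.41-fold to 1.80-fold. Across all tested genes 637 of the 1259 called falls and 214 of the 1173 called rises were at least 2-fold (6% and 2.01% of the tested genes). Large falls thus outnumbered large rises there too. Both AMH arrays lay above both control arrays for 38 members (40.9%, against 36% of all tested genes) and below them for 29 (31.2%, against 28.5%). The median difference was 0.13 over the tested members and 0.07 over all tested genes.

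The split depended on scaling and on probe set. Centring each array on its median gave 18 higher and 12 lower of the 93 members, against 14.2% and 10.4% of all tested genes. Scaling to the 9 hybridization control probe sets, which report RNA added after extraction, gave 0 higher and 27 lower. It gave 0.876% higher and 24.4% lower of all tested genes and moved their median to -0.35, so the shift was not particular to the members. Taking the mean over all tested probe sets of a gene gave 6 higher and 19 lower, against 7.24% and 11.8% of all tested genes. Without control replicate 1 there were 1 and 8, and without control replicate 2 there were 1 and 9. Fits without a control array take their spread from the AMH arrays alone, which lay further apart, so a call lost there need not reflect that control array. Of the 13 falls, 6 were called under each of the 15 alternatives run (Uchl1, Ube2n, Ube2s, Ube2l3, Ube2l6 and Cops5), and of the 12 rises 0 were. Not every alternative could end these falls. Uchl1, Ube2s, Ube2l6 and Cops5 have 1 tested probe set each, so changing the probe set rule left their differences as they were. Hybridization control scaling lowered the median of all genes, so it could end rises more readily than falls.

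**Figure D1:**
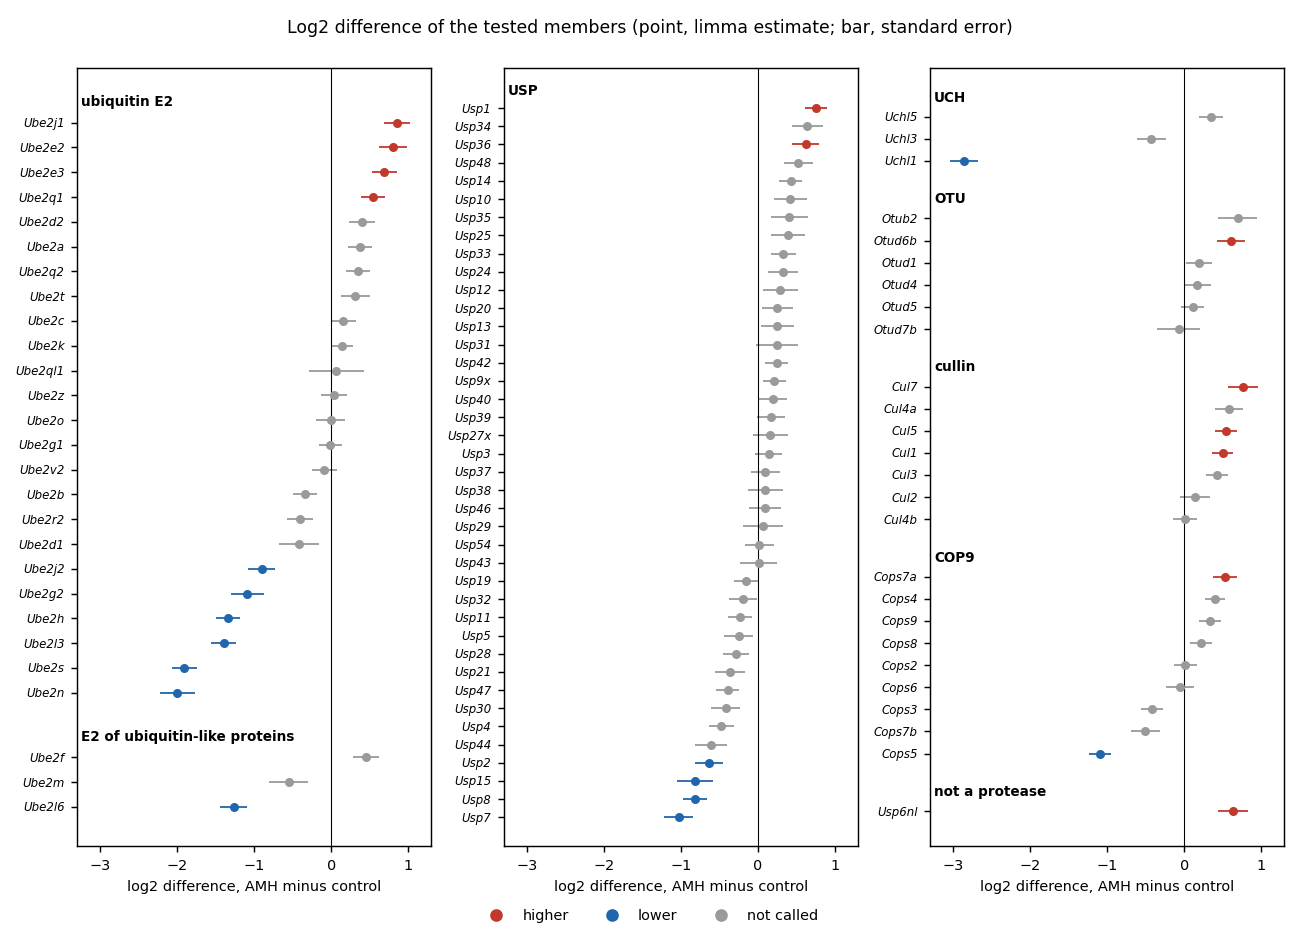
Log2 difference (AMH minus control) of each of the 93 tested members at its brightest probe set, by class, with the standard error of the limma fit as a bar (n = 2 arrays per group). Red marks members called higher and blue those called lower at an adjusted p under 0.05. Uchl1 stands apart at -2.87, Ube2n and Ube2s follow near -2, and at this probe set none of the 7 tested cullins lies below 0.

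Among the 3 tested UCH proteases Uchl1 fell and its relatives were not called, while 11.9% of all tested genes were called lower. Uchl1 had 300.2 and 221.1 on the AMH arrays against 2133.6 and 1837.4 on the control arrays. The groups lie far apart, with the higher AMH array well below the lower control array, and the difference was -2.87 ± 0.18 (7.29-fold, adjusted p = 0.000268), the largest among all members. Uchl3, a more widely expressed relative, had 578.6 and 813.6 against 968.6 and 889.1 (-0.43 ± 0.19, adjusted p = 0.137). It passed without AMH replicate 2, at -0.67 (adjusted p = 0.0074). Uchl5, which works on the proteasome, had 592.7 and 554 against 416.3 and 479.3 (0.35 ± 0.16, adjusted p = 0.148).

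Oocyte markers moved with Uchl1. Of the 10 tested genes of a list of 20 oocyte markers, 7 were called lower and 0 higher, with a median of -1.08, and their summed intensity was 7548 and 7975.3 on the AMH arrays against 10916.4 and 10214.2 on the control arrays. Gdf9, a ligand made by oocytes, had 453.7 and 317.7 against 1724.9 and 1732.5, whereas the egg coat genes Zp2 and Zp3 differed by 0.00 each. Of 10 neuron markers 3 were tested and 0 were called (1 of those 3, Prph, had 121 and 296.3 against 501.5 and 263.3), and the other 7 lay below the filter, with no value above 43.2. In whole ovaries fewer cells of a type and less RNA per cell cannot be told apart, and the part of oocyte number in the fall of Uchl1 was not tested.

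Markers of other cell types also differed on these arrays. The red blood cell gene Hbb, which encodes a haemoglobin chain, had 89.4 and 55.3 on the AMH arrays against 1362 and 1166.8 on the control arrays (-3.88 ± 0.22, adjusted p = 0.000219), the lowest difference of all tested genes. It was 1 of 2 tested members of a list of 10, and the other, Alas2, was dim and not called (-0.86 ± 0.31, adjusted p = 0.0839). The tested granulosa markers gave 4 higher and 1 lower of 14, theca and stroma markers 1 and 2 of 11, macrophage and leukocyte markers 1 and 0 of 11 and endothelial markers 0 and 0 of 8. The part of these cells in the falls of the members, among them Uchl1 and Ube2h, was not tested.

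The ubiquitin E2 enzymes, 24 of the 93 tested members, held 5 of the 9 falls of at least 2-fold. Called falls of that size made up 6% of all tested genes. Of the 24, 6 fell (25%, against 11.9% of all tested genes) and 4 rose (16.7%, against 11%), with a median of 0.01. Ube2n, which builds the chains used in signalling and DNA repair, had 321.4 and 278.7 on the AMH arrays against 1569.1 and 984.1 on the control arrays. The control arrays differed from each other more than the AMH arrays did, but the groups lie clearly apart (-2.0 ± 0.22, 3.99-fold, adjusted p = 0.00117). Its inactive partner subunit gene Ube2v2, needed to make those chains, had 629.7 and 733.2 against 784.6 and 668, which overlap (-0.09 ± 0.16, adjusted p = 0.732).

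Ube2s and Ube2c encode the E2 enzymes of the anaphase-promoting complex, the ligase that ends mitosis: Ube2c starts the chains and Ube2s extends them. Ube2s had 133.5 and 132.5 on the AMH arrays against 565.6 and 523 on the control arrays (-1.91 ± 0.16, 3.76-fold, adjusted p = 0.0005). Ube2c had 465.1 and 501.4 against 467 and 398.7, with overlapping groups (0.16 ± 0.16, adjusted p = 0.521). Ube2t, which works in repair of DNA crosslinks, had 164.1 and 190.9 against 134.1 and 144.5 (0.31 ± 0.18, adjusted p = 0.256). Proliferation markers went both ways on these arrays: of 15 tested, 4 were higher and 3 lower (median 0.14), and their summed intensity was 10319.3 and 9900.8 against 10533.7 and 10129.4. Of the subunits and activators of the complex itself, 16 tested, 1 was higher and 2 were lower (median 0.13). Cdc16 had 747.3 and 813.8 against 390.5 and 431.5 (0.90 ± 0.15, adjusted p = 0.00616). Anapc11, the RING subunit that binds the E2, had 222.2 and 248.8 against 591.8 and 547 (-1.22 ± 0.16, adjusted p = 0.00219), and Anapc2, the cullin-like subunit, had 173 and 161.7 against 299.2 and 305.2 (-0.80 ± 0.17, adjusted p = 0.0134). The call of Cdc16 was lost without control replicate 1 (0.83, adjusted p = 0.0617), with hybridization control scaling (0.43, adjusted p = 0.191) and in the mean over its probe sets (0.19), and that of Anapc2 without control replicate 1 (adjusted p = 0.103) or 2 (0.0983).

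Ube2l3, an E2 that serves HECT and RBR ligases such as parkin, had 316.8 and 369.6 on the AMH arrays against 982.2 and 877.7 on the control arrays (-1.40 ± 0.16, 2.64-fold, adjusted p = 0.00128). Its other probe set had 527.3 and 534 against 437 and 445.8 (0.26 ± 0.15, adjusted p = 0.249), so the probe sets of this gene point in opposite directions, and their mean gave -0.57 (adjusted p = 0.0369). Ube2h, the E2 of the CTLH ligase, had 243.3 and 229.9 against 664 and 585.7 (-1.34 ± 0.16, adjusted p = 0.00153), while its other probe sets gave 0.58 ± 0.20 (adjusted p = 0.0693) and 0.26 ± 0.23 (adjusted p = 0.467) and the mean over the 3 was not called (-0.17, adjusted p = 0.526). For Ube2n the other probe set gave -0.63 ± 0.24 (adjusted p = 0.0932) and the mean -1.31 (adjusted p = 0.00967).

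The E2 enzymes that act at the endoplasmic reticulum, where misfolded proteins are passed to the proteasome, moved in opposite directions. Ube2g2 had 87.6 and 61.4 on the AMH arrays against 177.6 and 172.2 on the control arrays (-1.09 ± 0.21, adjusted p = 0.0105), and a second probe set gave -1.76 ± 0.26 (adjusted p = 0.00373) from AMH values of 6.8 and 11.6, below the filter level, so that its size depends on the constant added. Ube2j2 had 376.5 and 292.2 against 616.9 and 653.6 (-0.90 ± 0.17, adjusted p = 0.00957). Ube2j1, its membrane-anchored relative, had 275.6 and 289.1 against 141.6 and 157.3 (0.85 ± 0.17, adjusted p = 0.0116), the highest difference of any tested member. None of the 3 pairs of groups overlap, which was a condition of the rule that picked the called E2 genes named. Without control replicate 1 there was no call for Ube2g2 (-1.07, adjusted p = 0.0605) and Ube2j1 (0.78, adjusted p = 0.109), without control replicate 2 none for Ube2j2 (-0.86, adjusted p = 0.0573), and with hybridization control scaling none for Ube2j1 (0.40, adjusted p = 0.214).

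The other rises among E2 genes were those of Ube2e2, Ube2e3 and Ube2q1. Ube2e2 had 509.7 and 409.4 on the AMH arrays against 276.7 and 235.6 on the control arrays (0.80 ± 0.18, adjusted p = 0.0175). Its close relative Ube2e3 had 1820.4 and 1775.8 against 1256.1 and 974.6 (0.69 ± 0.16, adjusted p = 0.0198), with a second probe set at 0.63 ± 0.21 (adjusted p = 0.0714). Ube2q1 had 501.3 and 560.4 against 378.3 and 339.5 (0.54 ± 0.16, adjusted p = 0.0433). The groups did not overlap for any of these, again a condition of the rule that picked them. Ube2q1 lost its call in 9 of 15 alternatives (adjusted p up to 0.841), among them those without AMH replicate 2, control replicate 1 or control replicate 2. Ube2e2 lost it without control replicate 1 (0.91, adjusted p = 0.0561) or 2 (0.69, adjusted p = 0.128), Ube2e3 without control replicate 2 (0.51, adjusted p = 0.215).

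The remaining 14 tested ubiquitin E2 genes had no call at the brightest probe set. Ube2d1 and Ube2d2 are near-identical all-purpose E2 enzymes whose probe sets may share target sequence. Ube2d1 was dim, at 32.3 and 37.9 on the AMH arrays against 63.2 and 42.6 on the control arrays (-0.42 ± 0.26, adjusted p = 0.283), and Ube2d2 had 720.9 and 863.8 against 651.2 and 542.3 (0.40 ± 0.17, adjusted p = 0.126, with other probe sets at -0.19 and -0.32). Ube2b, a homologue of yeast Rad6 that is needed for male fertility in mice, had 584.8 and 605.5 against 834.9 and 685.9 (-0.34 ± 0.16, adjusted p = 0.163). Ube2g1 was flat at its brightest probe set, with 872.2 and 775.5 against 787.7 and 871.8, yet a dimmer probe set had 109.6 and 108.2 against 418.2 and 394.3 (-1.76 ± 0.17, adjusted p = 0.00066). Ube2a, the twin of Ube2b, likewise gave 0.37 ± 0.16 (adjusted p = 0.124) at the brightest and -0.77 ± 0.17 (adjusted p = 0.017) at a dimmer probe set.

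Of the 3 E2 genes that carry ubiquitin-like proteins 1 fell, against 11.9% of all tested genes, and a share of 3 genes is imprecise. Ube2l6, the E2 for the interferon-induced modifier ISG15, had 97.5 and 106 on the AMH arrays against 268.6 and 266.3 on the control arrays. The arrays within each group agree closely, and the difference was -1.27 ± 0.18 (2.41-fold, adjusted p = 0.00284). Genes of the interferon response moved with it in part: of 15 tested, 6 were lower and 0 higher (median -0.78). Their summed intensity was 4366.3 and 9290.3 against 8997.9 and 9454.3, with AMH replicate 1 the low array. Isg15 itself had 183.2 and 1537.1 against 826.9 and 1365.2 (-0.96 ± 0.76, adjusted p = 0.402), so the modifier differed between the AMH arrays while its E2 did not. The E2 enzymes of NEDD8 were not called: Ube2m had 188.9 and 117.2 against 264.7 and 193.1 (-0.55 ± 0.25, adjusted p = 0.153) and Ube2f had 375.7 and 366.6 against 243.2 and 294.3 (0.45 ± 0.17, adjusted p = 0.094). Without AMH replicate 1 Ube2m passed, at -0.86 (adjusted p = 0.0198).

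**Figure D2:**
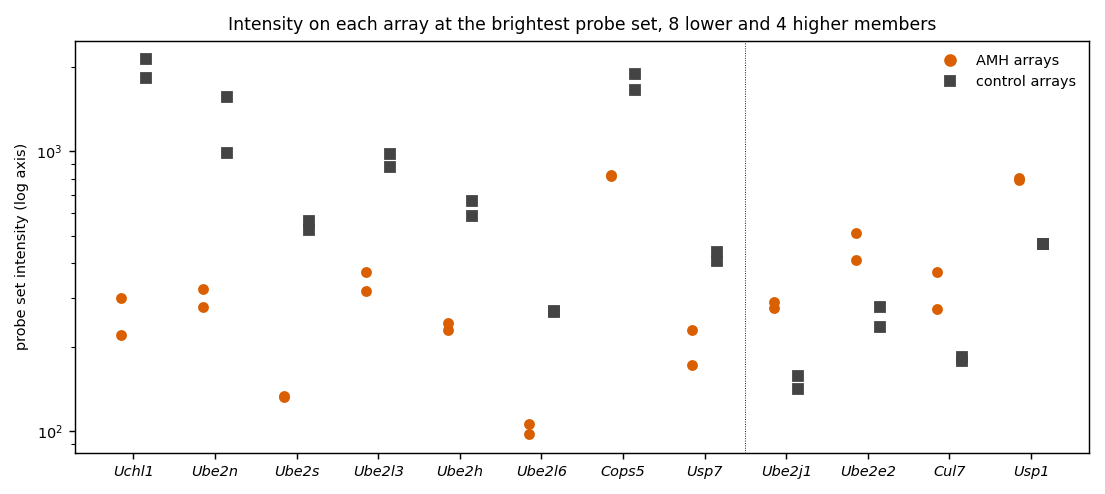
Intensity on each array (log axis) at the brightest probe set of 8 lower and 4 higher members, with AMH arrays as orange circles left of the control arrays as dark squares. The groups do not overlap for any of the 12, as for all 12 called rises and 13 called falls. The gap is widest for Uchl1 (300.2 and 221.1 against 2133.6 and 1837.4).

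The sequence before the start of 3 of the genes that fell under every alternative is shown, because they stand for the germ cell (Uchl1), mitotic (Ube2s) and interferon-related (Ube2l6) members. Each line gives the 250 bases before the RefSeq start, read 5′ to 3′ on the gene's strand, with GGGCGG (the GC box) and CCAAT on either strand in capitals.
Uchl1, GRCr8 chr14:41849418-41849667, minus strand: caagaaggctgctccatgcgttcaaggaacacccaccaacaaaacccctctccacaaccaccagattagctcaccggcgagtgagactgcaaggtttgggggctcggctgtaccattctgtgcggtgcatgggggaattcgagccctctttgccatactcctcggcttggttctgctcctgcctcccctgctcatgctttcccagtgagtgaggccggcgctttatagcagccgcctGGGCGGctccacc
Ube2s, GRCr8 chr1:78057409-78057658, plus strand: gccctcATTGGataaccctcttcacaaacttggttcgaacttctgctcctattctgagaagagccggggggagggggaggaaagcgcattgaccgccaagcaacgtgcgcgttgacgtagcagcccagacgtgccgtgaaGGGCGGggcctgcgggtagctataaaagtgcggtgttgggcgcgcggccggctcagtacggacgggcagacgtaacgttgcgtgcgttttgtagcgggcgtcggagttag
Ube2l6, GRCr8 chr3:90279455-90279704, plus strand: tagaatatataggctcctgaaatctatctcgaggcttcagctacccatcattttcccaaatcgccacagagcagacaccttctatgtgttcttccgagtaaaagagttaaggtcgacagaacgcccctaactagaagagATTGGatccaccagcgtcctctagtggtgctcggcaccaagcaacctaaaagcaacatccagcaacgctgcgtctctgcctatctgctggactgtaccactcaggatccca
Uchl1 has 1 GGGCGG near its start and no CCAAT, Ube2s has 1 of each, and Ube2l6 has 1 CCAAT and no GGGCGG. The GC box was found in at least 1 window of 54 of the 80 members with a listed window (67.5%). By call it was found in 10 of 11 higher, 5 of 11 lower and 37 of 53 uncalled members. Of all 33469 windows of that length, each counted singly, 30.5% held it. CCAAT was found in 21 members (26.2%) and in 34% of all windows. A member counts if any of its windows matches, so shares of members and of single windows are unlike measures and cannot be compared. These are matches of letters only.

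Of the 40 tested ubiquitin-specific proteases, the largest class, 4 fell (10%, against 11.9% of all tested genes) and 2 rose (5%, against 11%), and 34 were not called, with a median of 0.12 and a range from -1.02 to 0.75. Usp7, which stabilises MDM2 and p53, had 229.8 and 171.7 on the AMH arrays against 437.9 and 404.5 on the control arrays (-1.02 ± 0.19, adjusted p = 0.00818). Its other probe sets gave -1.16 ± 0.19 (adjusted p = 0.00551) and -1.43 ± 0.18 (adjusted p = 0.00202), so all 3 tested probe sets were lower. Usp8, which recycles receptors at endosomes, had 280.1 and 290.9 against 497.7 and 535.2 (-0.82 ± 0.16, adjusted p = 0.0092). Usp15, which is known to act on TGF-beta receptors and SMADs, had 86.2 and 55.8 against 140.7 and 128.8 (-0.81 ± 0.23, adjusted p = 0.0401). Usp2, a protease of cyclin D1 and the circadian clock, had 151.4 and 125.2 against 213.9 and 230.6 (-0.63 ± 0.18, adjusted p = 0.0434). In each of these genes both AMH arrays lay below both control arrays, a condition of the rule that picked the called USP genes named.

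The rises were those of Usp1 and Usp36. Usp1, which removes ubiquitin from PCNA and FANCD2 in DNA repair, had 805.7 and 790.3 on the AMH arrays against 466.5 and 466.8 on the control arrays (0.75 ± 0.14, adjusted p = 0.00964). A second, dimmer probe set of Usp1 was called the other way, at 108 and 142.8 against 276.9 and 276.9 (-1.06 ± 0.19, adjusted p = 0.00791), and the mean of the probe sets gave -0.15 (adjusted p = 0.52), so no direction can be given for this gene. Usp36, a nucleolar protease, had 247.8 and 262.8 against 174.5 and 147.2 (0.62 ± 0.18, adjusted p = 0.0407). Usp6nl, which shares the symbol but is a RAB GTPase activator and no protease, had 140.7 and 144.5 against 89.2 and 83.7 (0.63 ± 0.19, adjusted p = 0.0476), with a dimmer probe set called lower (-1.37 ± 0.27, adjusted p = 0.0112) from AMH values of 20.2 and 10.4.

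Among uncalled members with known roles, Usp9x, which acts on SMAD4, had 706.1 and 632.8 on the AMH arrays against 601.1 and 547.8 on the control arrays (0.21 ± 0.15, adjusted p = 0.347), and Usp14, the proteasome-bound protease, had 1458.5 and 1287.3 against 947.7 and 1087.8 (0.43 ± 0.15, adjusted p = 0.0781). No USP call held without control replicate 1: the adjusted p was then 0.0535 for Usp7, 0.0614 for Usp8, 0.208 for Usp15, 0.194 for Usp2, 0.0882 for Usp1 and 0.138 for Usp36 (0.219 for Usp6nl). Without control replicate 2 it was 0.0846 for Usp8, 0.123 for Usp15, 0.252 for Usp2, 0.0738 for Usp1, 0.29 for Usp36 and 0.255 for Usp6nl, and without AMH replicate 2 it was 0.0799 for Usp15, 0.0718 for Usp2, 0.0543 for Usp36 and 0.0646 for Usp6nl (0.0542 without AMH replicate 1). Usp14 passed without AMH replicate 2 (0.52, adjusted p = 0.0218).

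Of the 6 tested OTU proteases 1 rose, 0 fell and 5 were not called, against 11% higher and 11.9% lower of all tested genes. Otud6b had 492.5 and 448.4 on the AMH arrays against 265.3 and 344.6 on the control arrays (0.61 ± 0.18, adjusted p = 0.0441), a call lost in 9 of 15 alternatives (adjusted p up to 0.664, with 0.0616 without AMH replicate 1, 0.372 without control replicate 1 and 0.0745 without control replicate 2). Otub2 was dim, with 72.8 and 52.2 against 28.3 and 36.2 (0.69 ± 0.26, adjusted p = 0.0873, and 0.0426 without AMH replicate 2). Otud1, Otud4, Otud5 and Otud7b lay between -0.07 and 0.19 and were not called. Of 18 tested deubiquitinases of other families, 2 were higher and 1 lower (median 0.12). Psmd14, the protease of the proteasome lid, had 1468 and 1421.3 against 756.2 and 817.9 (0.86 ± 0.14, adjusted p = 0.00526), Mpnd had 435.6 and 505.9 against 205 and 191.3 (1.18 ± 0.17, adjusted p = 0.00304), and Stambpl1, an endosomal protease, had 1417.4 and 1246.1 against 2405.6 and 2450.7 (-0.86 ± 0.14, adjusted p = 0.00526). Psmd14 lost its call without control replicate 1 (adjusted p = 0.0595) and in the mean over its probe sets (0.14, adjusted p = 0.602). Hybridization control scaling ended the calls of Psmd14 (0.39, adjusted p = 0.213) and Mpnd (0.72, adjusted p = 0.05).

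Of the 7 tested cullins 3 rose and 0 fell, with a median of 0.50, and with hybridization control scaling 0 rose and 0 fell, with a median of 0.02. Both AMH arrays lay above both control arrays for 5 of the 7, against 36% of all tested genes. Among all tested genes 11% were called higher and 11.9% lower, and with 7 cullins such shares are imprecise. Cul1, the scaffold of the SCF ligases that drive the cell cycle, had 1812.7 and 1792.1 on the AMH arrays against 1246.4 and 1300.3 on the control arrays (0.50 ± 0.13, adjusted p = 0.0339). Cul5, which works with SOCS-box proteins, had 667.2 and 651.5 against 446.4 and 448.7 (0.54 ± 0.15, adjusted p = 0.0332). Cul7, the scaffold that pairs with the F-box protein FBXW8, had 272.3 and 369.1 against 177.9 and 183.2 (0.76 ± 0.19, adjusted p = 0.0268). The pools agree well within groups for Cul1 and Cul5, and the AMH arrays lie further apart for Cul7. A second, dimmer probe set of Cul5 gave -0.03 ± 0.27 (adjusted p = 0.953), and the mean of its probe sets was not called (0.256, adjusted p = 0.333).

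Cul3, which uses BTB proteins as receptors, had 1415.4 and 1248.1 on the AMH arrays against 985.5 and 989.5 on the control arrays (0.42 ± 0.14, adjusted p = 0.0692), and Cul4a, the scaffold bound to DDB1, had 339.5 and 368.4 against 202.1 and 264.3 (0.58 ± 0.18, adjusted p = 0.0564). Neither was called, although the groups do not overlap. Cul4b had 365.1 and 368.5 against 366.9 and 363.8 (0.01 ± 0.15, adjusted p = 0.986), so the close relatives Cul4a and Cul4b differed in their values, a difference that was not tested. Cul2, the scaffold of the VHL ligase, had 111.7 and 128 against 101.6 and 113.9 (0.13 ± 0.20, adjusted p = 0.665). Dimmer tested probe sets lay below 0 and were not called: -0.22 ± 0.22 for Cul3, -0.13 ± 0.21 for Cul4b and -0.04 ± 0.24 for Cul2. The rises were lost without control replicate 1 (adjusted p = 0.285 for Cul1, 0.236 for Cul5 and 0.14 for Cul7) and without control replicate 2 (0.201, 0.206 and 0.103), and with hybridization control scaling the differences were 0.02, 0.07 and 0.31. Without AMH replicate 1 Cul4a passed (0.64, adjusted p = 0.0416), and without AMH replicate 2 Cul3 did (0.51, adjusted p = 0.0161).

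Partners and regulators of the cullins changed in both directions. Of 17 tested core and regulator genes, 4 were higher and 3 lower (median 0.16). Rbx1, the RING subunit that recruits the E2, had 394.7 and 583.7 on the AMH arrays against 1427.2 and 1160 on the control arrays (-1.39 ± 0.21, adjusted p = 0.00375), and in the mean over its probe sets -0.53 (adjusted p = 0.0561). Elob, an adaptor for Cul2 and Cul5, had 606.5 and 711.8 against 1662 and 1600.2 (-1.29 ± 0.15, adjusted p = 0.00133). Skp1, the adaptor of Cul1, had 1176.9 and 1394.4 against 2491.2 and 2371.6 (-0.92 ± 0.15, adjusted p = 0.00499). The higher genes were Cand1, the exchange factor of the receptor modules, with 1506.8 and 1439 against 979.4 and 977.2 (0.58 ± 0.14, adjusted p = 0.0206), Dcun1d2 (0.62 ± 0.18, adjusted p = 0.0466) and Dcun1d5 (0.54 ± 0.16, adjusted p = 0.0466), which help attach NEDD8, and Gps1, a COP9 subunit named outside the Cops series, with 838.6 and 790.8 against 593.8 and 536.8 (0.52 ± 0.15, adjusted p = 0.0411). These 4 rises were lost without control replicate 1 (adjusted p = 0.176, 0.153, 0.274 and 0.189) and 2 (0.16, 0.302, 0.192 and 0.307), Dcun1d2 also without AMH replicate 1 (0.078) and Dcun1d5 without AMH replicate 2 (0.0742). With hybridization control scaling their adjusted p lay between 0.611 (Dcun1d2) and 0.909 (Gps1). Of 29 tested substrate receptors of cullin ligases, 3 were higher and 3 lower (median -0.04).

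In the COP9 signalosome 1 of 9 tested subunits fell and 1 rose at the brightest probe set (11.1% each). Among all tested genes 11.9% were lower and 11% higher, so these shares lay near the background. Cops5, the catalytic subunit that takes NEDD8 off cullins, had 820 and 825.1 on the AMH arrays against 1665.7 and 1897.6 on the control arrays (-1.10 ± 0.14, 2.14-fold, adjusted p = 0.00214), with groups far apart relative to their spread. Cops6, its structural partner, had 691.4 and 670 against 837.6 and 601.9, which overlap (-0.06 ± 0.18, adjusted p = 0.845). Cops7a had 362.2 and 386.5 against 255.6 and 254.2 (0.53 ± 0.16, adjusted p = 0.0481), and its paralogue Cops7b, which takes the same place in the complex, had 141.4 and 122.1 against 180.8 and 207.7 (-0.51 ± 0.19, adjusted p = 0.0875). Cops4 had 3015 and 2988.2 against 2188.8 and 2367.3 (0.40 ± 0.13, adjusted p = 0.0668), and Cops3 had 800.2 and 833.5 against 1066.7 and 1129.2 (-0.42 ± 0.14, adjusted p = 0.0668). Cops2 (0.01 ± 0.15), Cops8 (0.22 ± 0.14) and Cops9 (0.34 ± 0.14) were not called.

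Other probe sets of Cops3, Cops4, Cops7a and Cops7b gave lower differences than the brightest ones, while those of Cops2 gave higher ones (0.40 and 0.20, neither called). For Cops4 the dimmest probe set had 205.4 and 194.9 on the AMH arrays against 1160.5 and 1126.1 on the control arrays (-2.42 ± 0.15, 5.36-fold, adjusted p = 0.000268), and a further one gave -1.01 ± 0.16 (adjusted p = 0.0048). For Cops3 a dimmer probe set had 52.6 and 45.5 against 249.1 and 262.3 (-2.06 ± 0.19, adjusted p = 0.000596). Cops7a had a dimmer probe set at 58.2 and 86.7 against 309.4 and 256.4 (-1.77 ± 0.22, adjusted p = 0.00184), opposite to the call of its brightest one, and Cops7b one at 42.9 and 26 against 125.1 and 133.7 (-1.55 ± 0.24, adjusted p = 0.00462). The mean over all probe sets of a gene gave 5 lower and 0 higher of the 9 subunits, against 11.8% lower and 7.24% higher of all tested genes. The 5 were Cops5, Cops3 (-1.05, adjusted p = 0.00853), Cops4 (-1.01, adjusted p = 0.00537), Cops7b (-1.03, adjusted p = 0.016) and Cops7a (-0.61, adjusted p = 0.0398). The direction of Cops4 and Cops7a therefore depends on the probe set read. At its brightest probe set Cops7a also lost its call without AMH replicate 2 (0.48, adjusted p = 0.0616), control replicate 1 (adjusted p = 0.272) or control replicate 2 (0.255), and Cops4 passed without AMH replicate 1 (adjusted p = 0.0355) or 2 (0.0284).

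**Figure D3:**
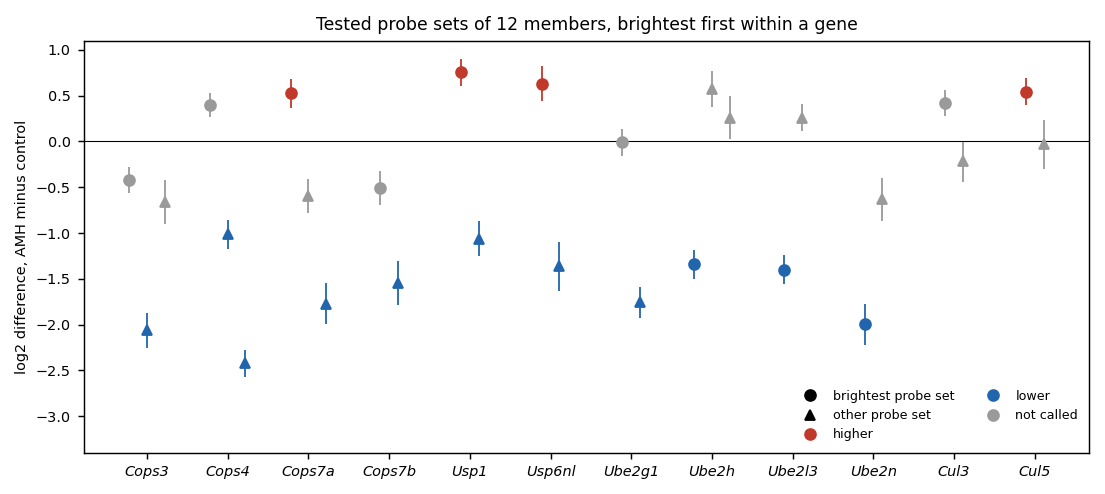
Log2 difference (AMH minus control, with the standard error of the limma fit) of each tested probe set of 12 members, from the brightest (circle) to dimmer ones (triangles) within a gene; red and blue mark calls. For Cops4, Cops7a, Usp1, Usp6nl, Cul3 and Cul5 the dimmer probe sets lie below 0 and the brightest above it. For Ube2h and Ube2l3 the brightest is the low one.

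Such splits were common among the members. How often calls disagree within a gene was not counted for all genes, where only the dimmest and brightest probe sets were compared. Of the 44 members with over 1 tested probe set, 23 had the same call at all of them, 21 did not and 3 (Cops7a, Usp1 and Usp6nl) were called in opposite directions. The dimmest probe set had a lower difference than the brightest in 33 of the 44 (75%), against 72% of 2609 genes on the whole array with over 1 tested probe set. The median difference of the 44 members was -0.37 at the dimmest and 0.12 at the brightest probe set, against -0.28 and 0.14 over those 2609 genes. Of the 57 tested member probe sets that were not the brightest of their gene, 18 were lower (31.6%) and 1 higher. Among all tested probe sets, which include the brightest ones, 12.8% were lower and 8.67% higher. The like comparison is at the dimmest probe set, which was lower for 31.8% of the 44 members and 22.3% of the 2609 genes. The 3′/5′ ratios differed between the groups on the same arrays, as given above, and where a probe set lies along its transcript was not analysed here.

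The steps before and after these classes also went both ways. Among 7 tested E1 enzymes 2 were higher and 1 lower (median 0.31). Uba1, the main E1 of ubiquitin, had 354.3 and 406.6 on the AMH arrays against 846.7 and 890.6 on the control arrays (-1.16 ± 0.15, adjusted p = 0.00225). Uba2, a subunit of the SUMO E1, had 1456.2 and 1505.7 against 870.5 and 878.3 (0.75 ± 0.14, adjusted p = 0.00818), and Uba3, a subunit of the NEDD8 E1, had 1685.6 and 1593.9 against 1174.7 and 1060.5 (0.55 ± 0.14, adjusted p = 0.0282). Of 5 tested ubiquitin-like proteins 1 was lower and 0 higher (median -0.19): Sumo2 had 1025.2 and 1119.2 against 2696.8 and 2474.5 (-1.26 ± 0.14, adjusted p = 0.00115), and Nedd8 had 1645.3 and 1544 against 1730.9 and 1869.1 (-0.17 ± 0.14, adjusted p = 0.403). Without control replicate 1 the adjusted p was 0.0825 for Uba2 and 0.147 for Uba3, and without control replicate 2 it was 0.0656 and 0.256. Hybridization control scaling ended both calls (0.27, adjusted p = 0.399 for Uba2, and 0.0691, adjusted p = 0.848 for Uba3).

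Of 18 tested HECT ligases 4 were higher and 2 lower (median 0.39). Nedd4 had 4739.7 and 4605.3 on the AMH arrays against 2245.3 and 2402.3 on the control arrays (1.00 ± 0.13, adjusted p = 0.00217), but the mean over its probe sets was -0.26 (adjusted p = 0.222) and hybridization control scaling gave 0.52 (adjusted p = 0.102). Hace1 had 375.9 and 460.1 against 215.2 and 277.3 (0.73 ± 0.19, adjusted p = 0.0296, with 0.249 without control replicate 1 and 0.456 with hybridization control scaling). Ube3b had 223.1 and 172.3 against 408.6 and 536 (-1.19 ± 0.20, adjusted p = 0.00616), and Huwe1, a very large ligase with many substrates, had 367.2 and 299 against 592.7 and 583.4 (-0.80 ± 0.17, adjusted p = 0.0127, with 0.0948 without control replicate 1 and 0.0712 without control replicate 2).

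**Figure D4:**
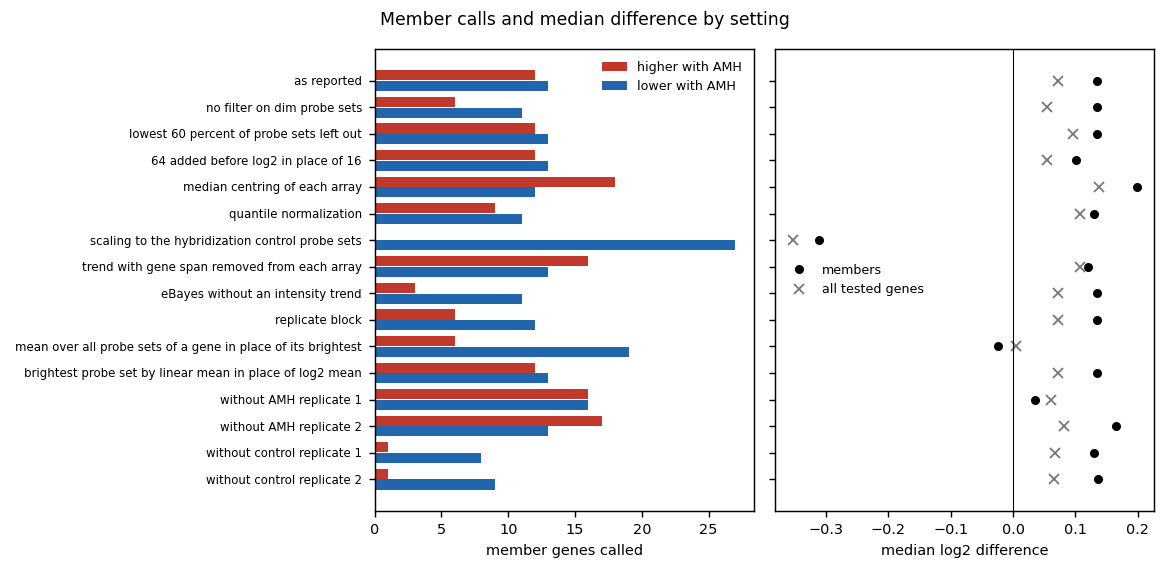
Number of member genes called higher (red) and lower (blue) with AMH under the setting reported and each of 15 alternatives, and beside it the median log2 difference of the tested members (points) and of all tested genes (crosses). The lower count stays between 8 and 27 and the higher count between 0 and 18. Both medians lie below 0 with hybridization control scaling, at -0.31 for the members and -0.35 for all tested genes.

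Gene span, the length of a gene on the chromosome in the RefSeq table, was the property examined that the choice of members did not use. When all tested genes were cut into 3 equal groups by span, 45 of the 93 tested members lay among the longest (over 41.1 kb) and 16 among the shortest (up to 13.8 kb). Spearman's correlation of span with the difference was 0.10 across the 93 members and 0.13 across 10589 tested genes, which share the same 4 arrays and are not independent. Among the longest 5 members were lower and 5 higher, among the 32 of the middle group 6 and 4, and among the shortest 2 and 3. Among all tested genes 7.28% of the longest, 10.8% of the middle group and 17.4% of the shortest were lower. The shares called higher were 12.2%, 12% and 9.01%.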

How the data were processed

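Total RNA from pools of cultured rat ovaries was labelled with biotin and read on Affymetrix arrays with 1 colour, per the labels' protocols. The deposited files hold a linear intensity for each probe set. How the authors summarised probes is not stated, but after trimming 2 percent at either end the mean intensity came to 125.03 on all 4 arrays, so each array had been scaled to one target. Depth does not apply to arrays, and their number limits precision.

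Groups came from the sample titles. Intensities were turned into log2(intensity + 16), which understates changes of dim probe sets. After dropping 57 control probe sets and then the dimmest 40 percent by mean log2 (a level of 27.8), limma 3.58.1 under R 4.3.3 tested AMH against control (lmFit, eBayes with an intensity trend, two-sided, Benjamini-Hochberg over 18625 probe sets, 2 residual and 6.33 prior degrees of freedom). The fit was tested on simulated data of 18625 probe sets, where 81 of 81 changes of log2 size 2 and 76 of 87 of size 1 were called, with 7 unchanged probe sets called. Few probe sets were changed there, whereas 8.67% were called higher and 12.8% lower on these arrays. The simulation thus checks the code and says little about how many of these calls are right. With 2 arrays per group no permutation test can reach a small p, so p-values rest on this model. Probe sets were named from the platform annotation where it lists 1 symbol (20832 probe sets), and all 99 member symbols matched the RefSeq table of GRCr8. Promoter windows are RefSeq's.

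Members, classes and lists were chosen with earlier results of these data known. All tested members are named in the small classes; in the ubiquitin E2 and USP classes the 6 largest rises and falls among called genes whose groups do not overlap, and a set of well-known genes, of which Ube2v1, Ube2d3 and Usp22 are not analysed here. From pathway lists the 2 highest and 2 lowest called genes may be named; Skp1, Gps1, Dcun1d5, Ube2a, Ube2g1, Prph, Hbb, Alas2, Gdf9, Zp2, Zp3, Amhr2, Isg15 and Nedd8 were chosen after their values were seen. Alternatives were the filter, the constant, scaling, gene span, the variance model, a replicate block, the probe set rule and each array left out.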

Additional observations from a re-analysis of the deposited data

How the results depend on the processing

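The 12 higher and 13 lower members became 6 and 11 with no filter on dim probe sets, 3 and 11 without an intensity trend in eBayes, 6 and 12 with a replicate block, 6 and 19 with the mean over probe sets, and 0 and 27 with hybridization control scaling. Shares of all tested genes, higher and lower, moved too. They were 5.27% and 6.81%, 6.38% and 9.79%, 9.13% and 10.8%, 7.24% and 11.8%, and 0.876% and 24.4% in the same order. With 1 array left out the higher count ran from 1 to 17 and the lower count from 8 to 16. In such fits the lone array is assumed to vary like the other group, and the AMH arrays differed more from each other (SD of the log2 difference 0.435) than the control arrays did (0.318). The 13 falls remained called under the lowest 60 percent filter, with 64 added, with the gene span trend removed, with hybridization control scaling and without AMH replicate 1, and 11 remained under quantile normalization. The replicate numbers share only a name: the deviations of same-numbered arrays had a correlation of -0.000816 over 18625 probe sets, and the block kept 5 of the 12 rises and 12 of the 13 falls.

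Signs also turned, and the cause was not tested. Among the genes called higher at the brightest probe set, those of Cops7a, Usp1, Usp6nl, Kctd5, Nedd4 and Smurf2 turned in the mean over probe sets. With hybridization control scaling the difference was -0.47 for Cops2, -0.0849 for Cops4, -0.25 for Cops8, -0.14 for Cops9, -0.29 for Cul2, -0.0551 for Cul3, -0.46 for Cul4b, -0.26 for Otud1, -0.30 for Otud4, -0.36 for Otud5, -0.31 for Ube2c, -0.0733 for Ube2d2, -0.0115 for Ube2f, -0.12 for Ube2t, -0.12 for Uchl5, -0.0513 for Usp14 and -0.26 for Usp9x. With the mean over probe sets it was -1.01 for Cops4, -0.61 for Cops7a, -0.0635 for Cul4b, 0.27 for Otud7b, -0.0362 for Ube2d2, -0.15 for Usp1, -0.37 for Usp6nl, -0.025 for Usp9x, -0.0775 for Kctd5, -0.26 for Nedd4 and -0.0153 for Smurf2. Quantile normalization gave -0.0304 for Cul4b and 0.0468 for Otud7b, median centring 0.00502 for Cops6 and removal of the span trend 0.10 for Cops6. With an array left out Cops2 ran from -0.086 to 0.11, Cops6 from -0.29 to 0.17, Cul4b from -0.000934 to 0.0119, Otud4 from -0.0122 to 0.35, Otud7b from -0.39 to 0.25 and Ube2v2 from -0.20 to 0.0241. Dim members below the filter have no call here.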
